A study of Homo sapiens with 4 samples.

Results

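The loops described here are those at 7 genes of the YAP and TEAD pathway, YAP1, WWTR1, TEAD1, CCN1, CCN2, AMOTL2 and ANKRD1. A loop was counted when at least 1 of its anchors, the pair of DNA segments that it joins, overlapped the body of a member gene extended by 20 kb on each side (GENCODE 44 lifted to GRCh37, the build the labels call hg19). Of the 77275 loop calls in the lists of 4 libraries, 162 met this rule, and after calls of different libraries with both anchor midpoints within 20 kb were joined, they made 63 of 33610 distinct loops. Hi-C measures how often pairs of genomic segments are ligated to each other after crosslinking, and was done here with the Arima chemistry in MDA-MB-231, a triple negative breast cancer (TNBC) cell line whose genotype the labels give as WT. One group of 2 libraries came from cells given 75 nM THZ1, a covalent inhibitor of CDK7, and the other group of 2 libraries from cells given its solvent DMSO (vehicle), both at 48 h. The question was whether inhibition of CDK7 changes how chromatin folds. The labels call the libraries technical replicates, so each p-value below measures only the spread between these samples, and with 2 libraries against 2 the exact permutation test cannot give a p below 0.333.

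The Hippo pathway is a kinase cascade that restrains tissue growth. When its kinases are idle, the co-activators YAP1 and TAZ (the product of WWTR1) enter the nucleus, where they have no DNA binding domain of their own and rely on TEAD factors to reach enhancers and promoters. CCN1 and CCN2 (older names CYR61 and CTGF) encode secreted matricellular proteins, ANKRD1 an ankyrin repeat protein of nucleus and sarcomere, and AMOTL2 an angiomotin that binds YAP1 and holds it at cell junctions. These 4 are classical targets of YAP1 and TEAD, and the pathway is active in many TNBC cell lines.

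The promoters of most members hold the letters that TEAD factors read. As 4 of the members are classical TEAD targets, a high share could come from the choice of genes. The motif GGAATG or its reverse complement CATTCC was present in the 250 bases upstream of the main start (the start of the Ensembl canonical transcript) in 6 of 7 members, against 9.82% of 19477 protein-coding starts. At least 2 copies were present in 0.642% of those starts, and among the members at CCN2, with 3 copies, and ANKRD1, with 2. The bases between motif and start numbered 163, 98 and 89 at CCN2, 214 and 122 at ANKRD1, 104 at CCN1, 63 at AMOTL2, 156 at YAP1 and 7 at TEAD1. WWTR1 had no match in its window. The windows of the 4 target genes are printed 5′ to 3′ along the gene because each of these 4 holds the motif. Capitals mark the motif on whichever strand it lies. In GRCh37 the windows are, in order, chr6:132272513-132272762 on the minus strand, chr10:92680845-92681094 on the minus strand, chr1:86046194-86046443 on the plus strand and chr3:134093290-134093539 on the minus strand.
CCN2: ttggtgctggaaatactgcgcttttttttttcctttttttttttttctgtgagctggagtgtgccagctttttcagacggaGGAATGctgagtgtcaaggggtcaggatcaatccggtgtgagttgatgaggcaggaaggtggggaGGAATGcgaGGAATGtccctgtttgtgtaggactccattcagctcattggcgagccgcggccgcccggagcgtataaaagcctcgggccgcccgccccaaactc
ANKRD1: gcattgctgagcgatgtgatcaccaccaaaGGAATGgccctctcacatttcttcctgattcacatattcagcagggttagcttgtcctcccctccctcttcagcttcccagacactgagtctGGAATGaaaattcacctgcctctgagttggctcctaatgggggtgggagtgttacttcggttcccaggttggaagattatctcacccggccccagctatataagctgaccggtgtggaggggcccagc
CCN1: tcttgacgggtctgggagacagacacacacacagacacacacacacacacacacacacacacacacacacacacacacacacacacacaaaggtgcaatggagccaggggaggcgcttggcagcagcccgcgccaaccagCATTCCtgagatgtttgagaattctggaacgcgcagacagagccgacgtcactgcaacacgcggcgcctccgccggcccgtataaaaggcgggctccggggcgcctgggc
AMOTL2: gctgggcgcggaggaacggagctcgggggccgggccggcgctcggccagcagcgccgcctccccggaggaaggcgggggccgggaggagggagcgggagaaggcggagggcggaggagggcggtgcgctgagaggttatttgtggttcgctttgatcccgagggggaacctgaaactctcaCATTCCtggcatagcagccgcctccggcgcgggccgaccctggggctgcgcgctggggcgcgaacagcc
A match is a description of letters and not a measured binding site.

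**Figure D1:**
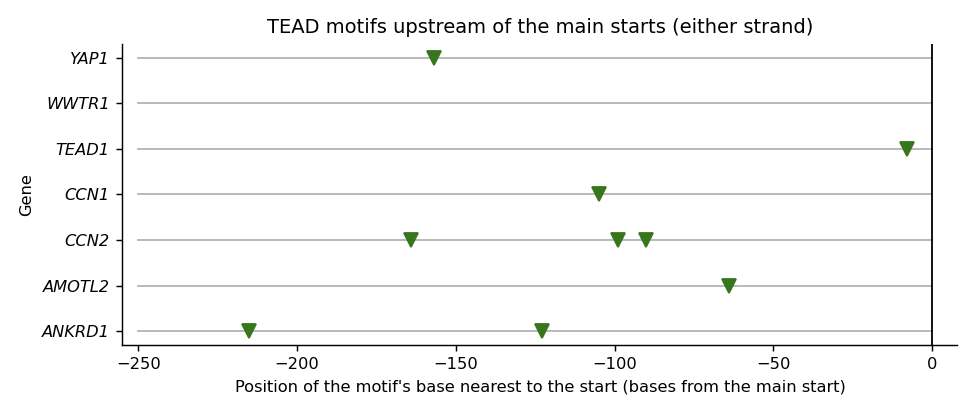
Position of each TEAD motif (triangles, either strand) in the 250 bases upstream of the main start of each member gene, in bases from the start. The motifs of CCN2 at 98 and 89 bases lie closest together, and the line of WWTR1 holds none.

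Loop anchors often hold sites of CTCF, the DNA binding protein at which loop extrusion by cohesin halts, and pairs of sites that point toward each other (convergent) are typical of extruded loops. A 12-letter CTCF consensus, searched on both strands, was present in 5 of 69 member anchors of 5 kb (7.25%), against 9.66% of 29472 anchors of that width over all loops. In anchors of 10 kb the shares were 11.6% of 43 and 14.2% of 20048, and in those of 25 kb 22.7% of 22 and 21.8% of 11802, so that the members lay near the shares of all loops at each width. No anchor of the 16 YAP1 loops held a match. The only convergent pair at a member joined MICAL2 to TEAD1, and it is printed with 9 bases of context on each side because it belongs to a loop that both THZ1 lists hold and both vehicle lists lack. Its first match lay at chr11:12353016-12353027 on the plus strand and its second at chr11:12910495-12910506 on the minus strand, and the match at the upstream anchor of an AMOTL2 loop called in all 4 libraries lay at chr3:134192966-134192977 on the minus strand of GRCh37. Capitals mark the consensus, written along its own strand.
TEAD1 loop, anchor in MICAL2: cacaaagtgCCAGCAGGTGGCagcaggagc
TEAD1 loop, anchor in TEAD1: gacacagagCCAGCAGGGGGCgatcatccc
AMOTL2 loop, anchor near ANAPC13: ctacaatacCCAGCAGGGGGCgctcaattc
Of all 27817 loops with 5 kb anchors, 1.41% had a convergent pair and 0.0467% a divergent one.

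Across the 7 genes, 44 and 47 loops were called in vehicle replicates 1 and 2, and 39 and 32 in THZ1 replicates 1 and 2. The vehicle mean was 45.5 ± 2.12 (SD, n = 2) and the THZ1 mean 35.5 ± 4.95 (SD, n = 2), a log2 ratio of -0.36 whose groups did not overlap (exact permutation p = 0.333, the smallest possible). All loops fell in number as well, from 20768 and 24219 to 17222 and 15066, and the members held 0.212% and 0.194% of them with vehicle and 0.226% and 0.212% with THZ1 (exact permutation p = 0.667). The 95% Wilson intervals of these shares, which cover counting error only, lay between 0.146 and 0.309%. The groups did not overlap in member loops with 5 kb anchors, which numbered 29, 31, 21 and 17. All loops were not counted by anchor width, so whether this differs from them was not tested. Loops with 10 kb anchors numbered 11, 13, 14 and 9, and those with 25 kb anchors 4, 3, 4 and 6. Here and below, each set of 4 values is in the order vehicle 1, vehicle 2, THZ1 1 and THZ1 2.

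Small loops of up to 90 kb made up 13 of 44, 14 of 47, 9 of 39 and 7 of 32 member calls. As shares these were 29.5, 29.8, 23.1 and 21.9%, below the shares over all loops of 37.3, 36.8, 26.2 and 25.5% in every library. The shares of small member loops did not overlap between vehicle and THZ1 (exact permutation p = 0.333), but their 95% Wilson intervals did, which in vehicle replicate 1 spanned 18.2 to 44.2% and in THZ1 replicate 1 12.6 to 38.3%. Median loop size at the members was 190, 195, 190 and 202 kb, so the groups overlapped (exact permutation p = 1.00), whereas over all loops it rose from 140 kb in both vehicle libraries to 200 kb in both THZ1 libraries. With the 20 kb window, member loops with vehicle were thus longer than the typical vehicle loop, and with THZ1 close to the typical THZ1 loop. This depended on the window. For the gene bodies without extension, the member median of vehicle replicate 1 lay below the 140 kb of all vehicle loops, and that of vehicle replicate 2 above it. Both THZ1 member medians then lay below the 200 kb of all THZ1 loops. The ratio of observed contacts to those expected from the surrounding ring of the map (the donut, a local background) had a median of 4.17, 4.24, 3.51 and 3.77, below the medians of all loops of 4.60, 4.60, 4.10 and 4.04. Median observed contacts per member loop were 29, 30, 32 and 32, and the median expected contacts were 6.40, 6.46, 8.93 and 8.16. The median expected value thus differed between vehicle and THZ1 more than the median observed one. These medians of ratios and contacts pool all anchor widths, and the mix of widths differed between the groups. Calls with 5 kb anchors were 29 of 44, 31 of 47, 21 of 39 and 17 of 32. The medians therefore cannot separate treatment from anchor width, and the part of the expected value in the ratio was not tested.

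The 7 genes did not move alike. YAP1 was the 1 member with fewer loops in both THZ1 libraries than in both vehicle libraries, which held for 28.9% of the 17028 protein-coding genes with any loop. No member had more loops in both THZ1 libraries, against 3.01% of genes. Loops per library were 11, 15, 8 and 6 at YAP1, 5, 5, 5 and 6 at WWTR1, and 10, 7, 8 and 8 at TEAD1. At the target genes they were 5, 5, 5 and 3 for CCN1, 7, 5, 8 and 4 for CCN2, 3, 3, 3 and 2 for AMOTL2, and 3, 7, 2 and 3 for ANKRD1. The vehicle mean of YAP1 was 1.86-fold its THZ1 mean, and that of ANKRD1 2.00-fold, but at ANKRD1 the excess rested on the 7 loops of vehicle replicate 2.

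**Figure D2:**
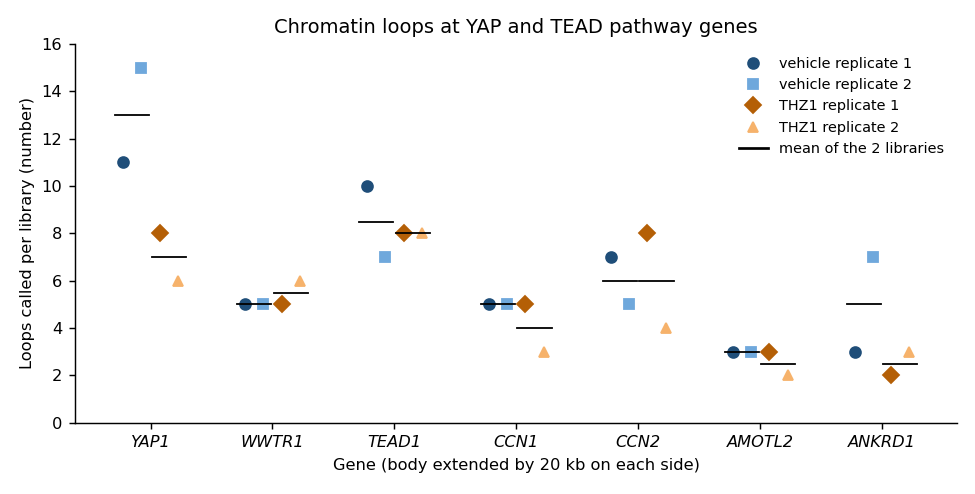
Number of loops called at each member gene (y axis) in each of the 4 libraries (points), with the mean of the 2 libraries of a condition as a line. The THZ1 points lie below both vehicle points at YAP1, which went from 11 and 15 loops to 8 and 6, and overlap or touch the vehicle points at the other 6 genes.

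The lists give a value only where a loop was called, so a missing call is not a measurement of a missing contact. Of the 63 distinct member loops, 19 (30.2%) were called in all 4 libraries, against 26.1% of all distinct loops. The joined loops include 9 calls that lay outside the 20 kb windows, at CCN1, CCN2 and ANKRD1. Without those calls, some of the 19, at CCN1 and CCN2, would not have a call in every library. In both vehicle libraries and neither THZ1 library, 7 (11.1%) were called, against 9.67%, and in both THZ1 libraries and neither vehicle library 3 (4.76%), against 2.23%. A further 15 (23.8%) were called in 1 library only, against 40.9%. The 7 vehicle loops comprised 3 at YAP1, 2 at TEAD1 and 2 at ANKRD1, and the 3 THZ1 loops 2 at TEAD1 and 1 at CCN2. An annotated start of the member lay in an anchor of at least 1 call of 29 of the 63 loops.

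YAP1, the co-activator, had 16 distinct loops, the most of the 7 genes. The gene lies at chr11:101981178-102104155 on the plus strand, 123 kb long. Many of its loops met at the promoter, where 8 distinct loops had an anchor (counting anchors of up to 10 kb here and below) on the segment chr11:101980001-101985000 that holds the start, with 6, 7, 5 and 3 calls. Another meeting point lay 116.3 kb downstream of the start, at chr11:102095001-102100000, in the last part of the gene body. It took part in 6 distinct loops, with 5, 5, 2 and 2 calls, so that the THZ1 libraries had fewer calls there than both vehicle libraries. All loops fell in number as well, and how many segments over all loops changed in either direction was not counted. A further one lay in the intron at chr11:102045001-102050000, with 5 distinct loops and 1, 4, 2 and 1 calls, and its neighbour chr11:102040001-102045000 had 3 distinct loops and 3, 3, 1 and 1 calls. The segment next to the promoter, chr11:101985001-101990000, went the other way, with 5 distinct loops and 2, 1, 3 and 3 calls, several of them with 10 kb anchors that also cover the promoter segment. A segment in TRPC6, chr11:101730001-101735000, had 3 distinct loops and 2, 2, 2 and 0 calls, and a segment 31 kb beyond the gene, chr11:102135001-102140000, 3 distinct loops and 1, 3, 2 and 2 calls.

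The loops of YAP1 called in all 4 libraries lay within the gene or just beyond it. The first, of 115 kb, joined the start to the last part of the gene, with 34, 30, 29 and 32 observed contacts and observed/expected ratios of 4.68, 4.10, 2.96 and 3.26. The second, of 40 kb, joined the last part of the gene to the segment downstream, with 48, 61, 48 and 42 contacts and ratios of 3.13, 3.72, 2.34 and 2.24. In both, the THZ1 ratios lay below both vehicle ratios while the observed contacts overlapped or touched. The third joined the start or the first part of the gene to the intron over 35 to 60 kb, and its calls had different anchor widths (ratios from 2.12 to 4.07), so they are not compared.

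At YAP1, 8 of the 16 distinct loops were called with vehicle only and 0 with THZ1 only, where the shares over all distinct loops were 38.1% and 14.7%. Those called in both vehicle libraries and neither THZ1 library were 3. A 205 kb loop joined the YAP1 start to the start of BIRC3, an inhibitor of apoptosis gene next to YAP1, at ratios of 4.43 and 4.52 from 24 and 27 contacts. A 215 kb loop joined a segment 8 kb from CEP126, a gene of a centrosomal protein, to the last part of YAP1, at ratios of 4.41 and 5.06. The third, of 50 to 55 kb, joined the intron to the last part of the gene, at ratios of 3.88 and 3.55. A 230 kb loop joined the YAP1 start to an anchor that holds the neighbouring BIRC2 start and a BIRC3 exon. It was called with 10 kb anchors in vehicle replicate 1 and both THZ1 libraries, at ratios of 3.65, 3.40 and 3.43. Vehicle replicate 1 thus had both this loop and the loop to the BIRC3 start, which had 5 kb anchors. Upstream, a loop of 250 kb from an intron of TRPC6, a calcium channel gene, to the YAP1 start was called in both vehicle libraries at ratios of 8.01 and 6.97 with 5 kb anchors, and in THZ1 replicate 1 at 3.32 with 10 kb anchors. Ratios at different anchor widths are set side by side without a comparison.

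**Figure D3:**
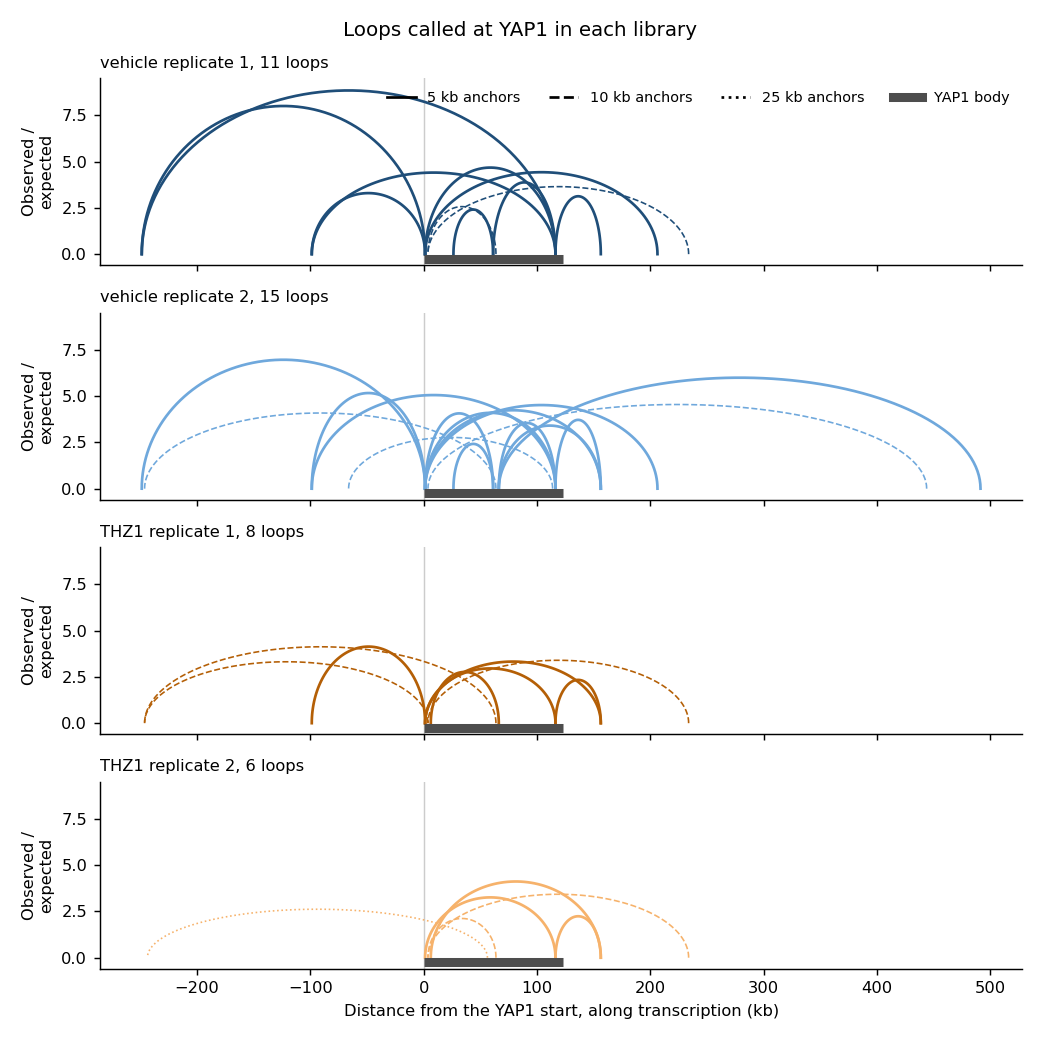
Loops called at YAP1 in each of the 4 libraries, drawn as arcs between anchor midpoints at their distance in kb from the YAP1 start (x axis), with the observed/expected ratio as the arc height (y axis) and the line style giving the anchor width. The arcs from the end of the gene body number 5 in each vehicle panel and 2 in each THZ1 panel, and the arc to the BIRC3 start is drawn in the vehicle panels only.

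WWTR1, which encodes the co-activator TAZ, had 5, 5, 5 and 6 calls, a range that overlapped between the groups. It lies at chr3:149235022-149454501 on the minus strand, with its main start at 149375812. Of its 8 distinct loops, 2 were called in all 4 libraries, and both lay inside the gene. A loop of 40 to 45 kb between introns had 22, 32, 21 and 27 contacts and ratios of 3.07, 3.54, 2.34 and 3.71, so that vehicle and THZ1 overlapped. A loop of 75 to 80 kb joined the main start to the middle of the gene, at ratios of 4.81 and 5.30 with 5 kb anchors in an intron in the vehicle libraries and 3.51 and 3.31 with 10 kb anchors that also hold an alternative start in the THZ1 libraries. The segment chr3:149295001-149300000, 78.3 kb downstream of the main start, took part in 4 distinct loops, with 1, 4, 3 and 3 calls. No WWTR1 loop was called in both libraries of 1 condition and neither of the other. The longest, of 1200 kb, reached the start of SIAH2, a ubiquitin ligase gene, and was called in THZ1 replicate 2 only, from 20 contacts with 25 kb anchors.

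TEAD1, the DNA binding partner, had 10, 7, 8 and 8 calls and 14 distinct loops. It lies at chr11:12695968-12966284 on the plus strand. Its start was joined in all 4 libraries to a part of the gene 215 to 225 kb downstream. In vehicle replicate 1 and both THZ1 libraries the far anchor was the intronic segment chr11:12910001-12915000, at ratios of 8.89, 5.30 and 4.23. In vehicle replicate 2 it was a 25 kb anchor around that segment, which also holds an alternative start, at a ratio of 2.35. Joined calls of 105 to 140 kb ran from the first part of TEAD1 to an intron, at ratios of 4.01, 4.07, 4.07 and 4.43, so that neither THZ1 library lay below a vehicle library. The first anchor held the start except in vehicle replicate 1, where it was the intronic segment chr11:12715001-12720000, and the second anchors lay apart as well, so these calls may be more than 1 loop. Downstream of the gene, a loop of 220 to 225 kb between segments without a protein-coding gene had ratios of 10.6, 7.31, 6.40 and 7.42, overlapping between the groups.

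Of the 4 loops at TEAD1 called in both libraries of 1 condition only, 2 had an anchor in MICAL2, a neighbouring gene of an actin oxidizing enzyme. In both vehicle libraries, a loop of 600 to 610 kb ran from an alternative MICAL2 start into TEAD1, with ratios of 2.81 at 25 kb and 4.30 at 10 kb anchors. In both THZ1 libraries, a loop of 560 kb with 5 kb anchors joined a MICAL2 intron to a TEAD1 intron, at ratios of 7.87 and 6.56 from 20 and 15 contacts. Its TEAD1 anchor lay inside the wider TEAD1 anchors of both vehicle calls, so that the loops differed at the MICAL2 end. The anchors of the THZ1 loop are those that hold the convergent CTCF matches printed above, and the vehicle anchors at TEAD1 hold the second of these matches as well. Both vehicle anchors at MICAL2 hold another match, at chr11:12303572-12303583 on the minus strand. The vehicle loop thus had matches that point the same way, and the THZ1 loop a convergent pair. The segment with the second match, chr11:12910001-12915000, took part in 4 distinct loops, with 2, 1, 2 and 2 calls. The other vehicle loop was a 70 kb loop from a segment upstream to the TEAD1 start (ratios 2.13 and 2.04), and the other THZ1 loop a 190 kb loop downstream of the gene (ratios 4.04 and 3.82).

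CCN1, the first of the target genes, is 3.83 kb long and lies at chr1:86046444-86050272 on the plus strand. Its loops numbered 5, 5, 5 and 3, and 4 of 7 distinct loops were called in all 4 libraries, with none called in both libraries of 1 condition and neither of the other. The segment just upstream of its start, chr1:86040001-86045000, also holds an alternative start of DDAH1, a gene of an enzyme that degrades methylarginines, so the loops there cannot be assigned to either gene. This segment was joined to the far end of DDAH1 by a 255 kb loop with 42, 43, 32 and 32 contacts and ratios of 5.39, 4.73, 3.58 and 3.73, lower in both THZ1 libraries than in both vehicle libraries. The other distinct loops of all 4 libraries joined calls whose anchors differed between libraries. Calls of 50 to 80 kb lay within DDAH1, calls of 50 to 120 kb ended in ZNHIT6 (on its main start in both vehicle libraries, with 5 kb anchors, and in its body in every other call), and calls of 220 to 250 kb ended in COL24A1, a fibrillar collagen gene. In the DDAH1 set, the calls of vehicle replicate 2 and THZ1 replicate 2 lay outside the 20 kb window of CCN1. In the COL24A1 set, those of vehicle replicate 1 and THZ1 replicate 2 did. By the window rule alone, neither set was called in all 4 libraries.

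CCN2 lies at chr6:132269316-132272512 on the minus strand, and the far anchors of its loops all lay upstream of the gene. They numbered 7, 5, 8 and 4, and 4 of 8 distinct loops were called in all 4 libraries. Their anchors fell on 2 segments. The segment chr6:132245001-132250000, 25 kb downstream of the start, took part in 4 loops with 4, 3, 4 and 2 calls, and chr6:132270001-132275000, which holds the start, in 4 loops with 3, 1, 4 and 2 calls. From the first, a 290 kb loop reached a segment 77 kb from MOXD1, with 29, 31, 52 and 25 contacts and ratios of 8.71, 9.57, 9.20 and 4.59. THZ1 replicate 2 was low and THZ1 replicate 1 lay between the vehicle libraries. Loops of 335 to 370 kb ended beside MOXD1, a gene of a monooxygenase-like protein, at 7 to 32 kb from it except for 1 call of THZ1 replicate 1 that overlapped it, and loops of 560 to 565 kb reached STX7, a syntaxin gene. The STX7 call of THZ1 replicate 2 had its near anchor at chr6:132240001-132245000, outside the 20 kb window of CCN2. From the CCN2 start, a loop of 240 to 260 kb was called in all 4 libraries at ratios of 2.46, 2.97, 2.36 and 2.34, with 5 kb anchors in vehicle replicate 2 and 10 kb anchors in the others. A loop of 860 kb from the CCN2 start to the start of RPS12, a ribosomal protein gene, and an alternative start of SLC18B1 was called in both THZ1 libraries and neither vehicle library, at ratios of 8.33 and 9.79, each from 13 contacts with 10 kb anchors.

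AMOTL2 lies at chr3:134074189-134094321 on the minus strand and had the fewest distinct loops, 3, of which 2 were called in all 4 libraries. A loop of 45 to 50 kb from the end of the gene had 69, 71, 50 and 53 contacts and ratios of 9.61, 9.83, 6.50 and 6.82. Both contacts and ratios were lower in the THZ1 libraries than in both vehicle libraries, with a log2 difference of the ratios of -0.55. A loop of 100 kb from the start to a segment 2 kb from ANAPC13, a gene of the anaphase promoting complex, had 34, 47, 42 and 34 contacts and ratios of 7.83, 9.27, 7.49 and 6.74. The third loop, of 55 kb from the start, had ratios of 7.03 and 6.01 with vehicle, 2.77 in THZ1 replicate 1, and no call in THZ1 replicate 2.

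ANKRD1 lies at chr10:92671853-92680844 on the minus strand, and 1 of its 7 distinct loops was called in all 4 libraries. That loop, of 335 to 370 kb, ended in PCGF5, a Polycomb subunit gene. Its calls with 5 kb anchors, which ran from the end of ANKRD1, had ratios of 7.27, 7.96, 6.82 and 5.52, lower with THZ1 in both libraries. Their observed contacts were higher with THZ1 in both libraries, at 14, 19, 30 and 25, as were the expected ones, at 1.93, 2.39, 4.40 and 4.53. The far anchor began at 93010001 with vehicle and at 93005001 with THZ1, so the calls were not on identical segments. A segment beside the ANKRD1 start was joined to an alternative PCGF5 start in both vehicle libraries and neither THZ1 library. The anchor in vehicle replicate 1 lay 9 kb upstream of the gene (230 kb, ratio 5.70 with 5 kb anchors) and that in vehicle replicate 2 within the gene (250 kb, ratio 3.99 with 10 kb anchors), so neither held the start itself. The other loop of this kind spanned 675 kb to a segment 13 kb from PPP1R3C, a gene of glycogen metabolism, at ratios of 3.66 and 2.74 with 25 kb anchors. Calls with an anchor on the main start numbered 1, 3, 1 and 0.

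**Figure D4:**
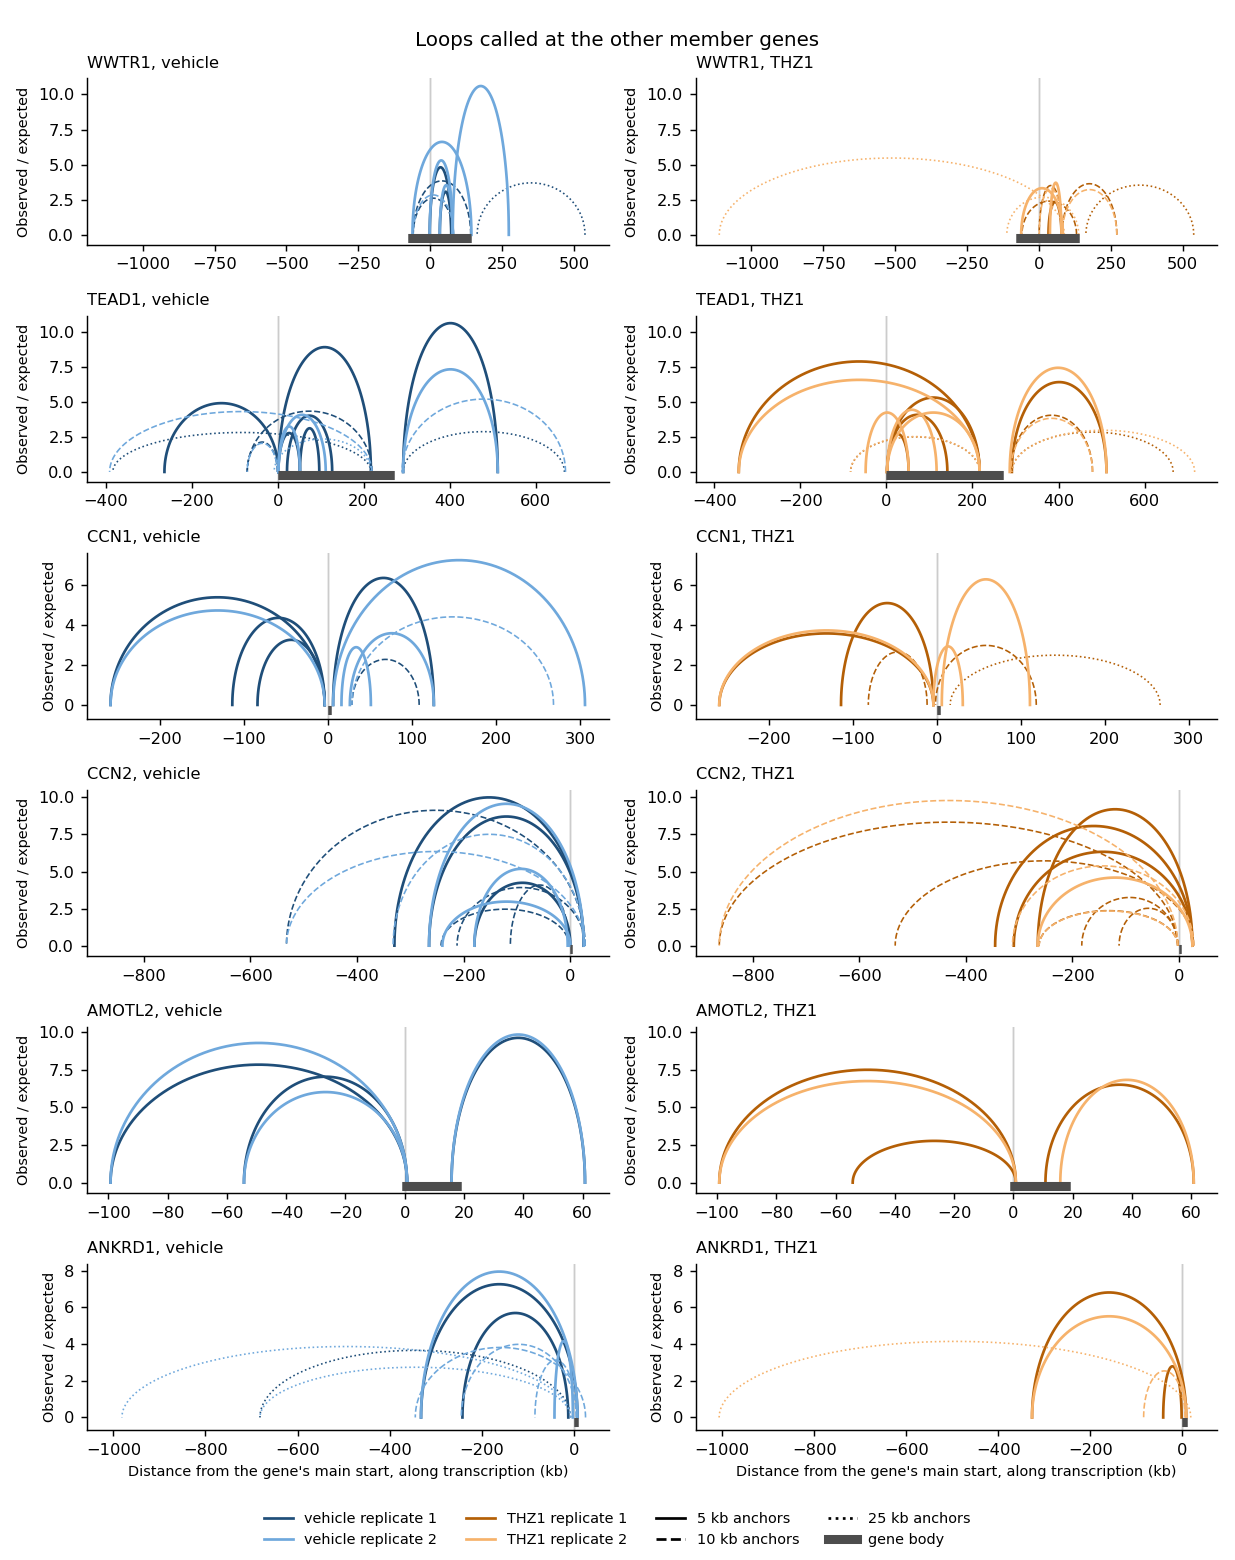
Loops called at the other 6 member genes, with vehicle libraries on the left and THZ1 libraries on the right, as arcs between anchor midpoints by distance in kb from the main start along transcription (x axis), with the observed/expected ratio as height (y axis), colour for the library and line style for the anchor width. The TEAD1 arc of 560 kb and the CCN2 arc of 860 kb appear in the THZ1 panels only, and the 675 kb arc of ANKRD1 in the vehicle panel only.

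Strength was compared where it could be, on loops measured at the same anchor width. Over 9 member loops called once per library in all 4 libraries at 1 width, the ratio was lower in both THZ1 libraries than in both vehicle libraries for 5, against 61.3% of 4620 such loops in all, and higher in both THZ1 libraries for 1, against 2.79%. Of the 5, the loops of 115 kb and 40 kb lay at YAP1 and that of 255 kb beside CCN1. Those of 45 to 50 kb and of 100 kb lay at AMOTL2. The 1 was the set of joined calls of 105 to 140 kb at TEAD1, which may be more than 1 loop. Its ratios in vehicle replicate 2 and THZ1 replicate 1 were equal as printed, at 4.07. The median log2 difference was -0.47 over the members and -0.37 over all.

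A test was possible for loops with identical anchors in all 4 lists, 2617 in all and 5 at the members. By edgeR's quasi-likelihood test on observed counts with the donut expectation as offset, 27.6% of the 2617 loops were lower with THZ1 at a Benjamini-Hochberg adjusted p under 0.05 and 0.0382% higher, with a median log2 change of -0.41. At the members 1 of 5 passed, the 40 kb loop at the end of YAP1, with a log2 change of -0.58 ± 0.19 (SE, adjusted p = 0.0312). Against the median of all loops its change was -0.17 (adjusted p = 0.819), and its call was also lost with DESeq2 (adjusted p = 0.222), with observed contacts scaled by TMM and no expectation (-0.26, adjusted p = 0.503) and without any 1 of the libraries (adjusted p from 0.0652 to 0.249). Of the 4 that did not pass, the 115 kb loop of YAP1 had a log2 change of -0.50 ± 0.23 (adjusted p = 0.125). The 255 kb loop beside CCN1 had -0.46 ± 0.21 (adjusted p = 0.122). The loops at CCN2 and AMOTL2 had -0.40 ± 0.27 (adjusted p = 0.275) and -0.27 ± 0.21 (adjusted p = 0.361). The CCN2 value rested on THZ1 replicate 2, since it was 0.01 without that library. Under the TMM setting, all tested loops split into 108 lower and 67 higher, in place of 721 and 1.

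**Figure D5:**
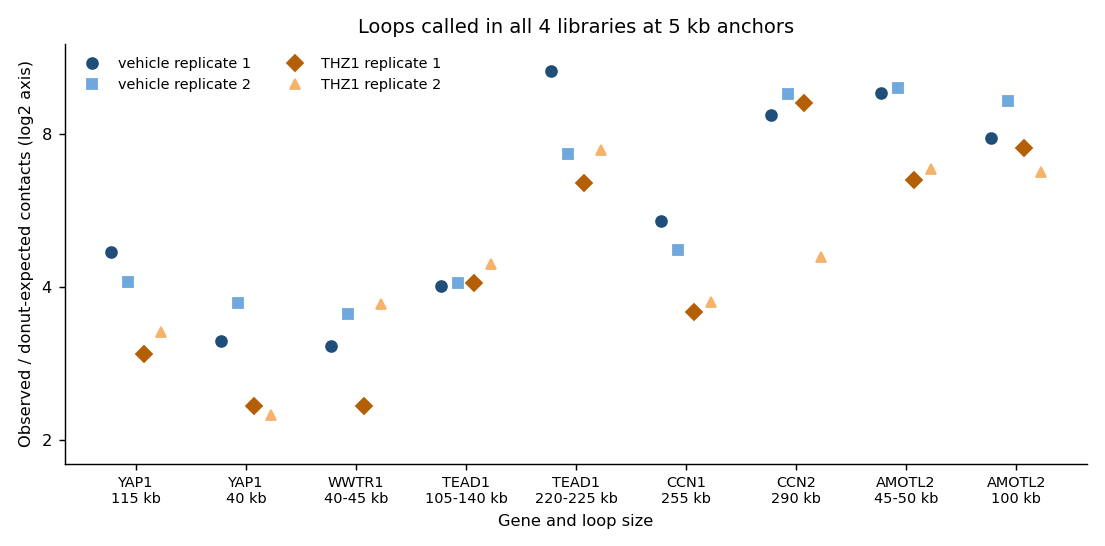
Ratio of observed to donut-expected contacts (y axis, log2 scale) in each of the 4 libraries (points) for the 9 member loops called once per library in all 4 libraries with 5 kb anchors, named by gene and loop size (x axis). Both THZ1 points lie below both vehicle points at 5 loops, which lie at YAP1, at AMOTL2 and beside CCN1. The point of THZ1 replicate 2 at CCN2, 4.59, lies far from the other 3, 8.71 to 9.57.

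Other genes of the pathway were counted in the same way. The list of Hippo kinases and upstream regulators (14 genes, among them the kinases STK3, STK4, LATS1 and LATS2, the adaptors SAV1 and MOB1A, and the tumour suppressor NF2) had 62, 70, 49 and 42 loops. The 3 other TEAD genes had 8, 8, 4 and 3 loops, and 18 other target genes 126, 136, 112 and 92. All 3 lists had fewer loops in both THZ1 libraries than in both vehicle libraries (exact permutation p = 0.333 each), as the members did. All loops fell as well, at a log2 ratio of -0.48, where the 3 lists had -0.54, -1.19 and -0.36. Of the 35 genes, 13 had fewer loops in both THZ1 libraries and 0 had more, against the 28.9% and 3.01% of all genes given above. Loops called in both vehicle libraries and neither THZ1 library made up 7.41% of 108 distinct loops of the Hippo list and 10.0% of 180 of the target list. In the test of strength, 0 of 3 loops of the Hippo list, 1 of 1 of the TEAD list (at TEAD3, log2 change -0.59) and 6 of 19 of the target list were lower, and none was higher. The medians were -0.16, -0.59 (the 1 TEAD loop) and -0.49, against -0.41 over all tested loops, of which 27.6% were lower.

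Contact domains, the squares of raised contact that Arrowhead finds, gave a readout at the same genes that does not use the loops. Domains that overlapped a member gene's body numbered 3, 2, 4 and 6, with means of 2.50 ± 0.707 (SD, n = 2) for vehicle and 5.0 ± 1.41 (SD, n = 2) for THZ1 (exact permutation p = 0.333), where all domains numbered 1198, 1398, 2477 and 2345. YAP1 lay in no domain with vehicle and as a whole in 1 domain in each THZ1 library, chr11:101960001-102140000 and chr11:101960001-102150000, of 180 and 190 kb. The downstream boundary of the first was the end of the segment 31 kb beyond YAP1 at which its 40 kb loop ends. WWTR1 was crossed by 1 domain in every library, of 170, 160, 230 and 220 kb, larger in both THZ1 libraries. All domains rose in number with THZ1, and the share of all genes with the pattern of YAP1 or WWTR1 was not counted. TEAD1 was also crossed by 1 domain in every library, of 160, 220, 220 and 220 kb, and the 3 of 220 kb ended at 12910000, next to the segment with the CTCF match. CCN1 was crossed by a domain of 120 kb in vehicle replicate 1 and THZ1 replicate 2, CCN2 and AMOTL2 lay in a domain in THZ1 replicate 2 only, and ANKRD1 in THZ1 replicate 1 only.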

How the data were processed

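Arima-HiC was measured in 2 vehicle and 2 THZ1 libraries of MDA-MB-231 cells (75 nM, 48 h). Per the labels, the authors processed the reads with Juicer 1.6 on hg19, and the file headers name juicer_tools 1.19.02. In the authors' loop lists (HiCCUPS, anchors of 5, 10 and 25 kb merged), the deposited observed contacts are raw counts, the deposited expected contacts are a signal on the same scale from 4 surrounding areas of the map, and the deposited q-values against the donut were at most 0.0959. The deposited domain lists give Arrowhead's corner score. The settings of both callers are not given in the sources used here. The deposited tables of unique loops hold the authors' own comparison and were not used.

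The members and the gene lists were chosen with earlier results of these data known. Genes were those of GENCODE 44 on GRCh37. Loop size was the distance between anchor starts. The lists hold no read totals, and the paper gives read depth per sample only as a range, so depth was not compared between libraries. Contacts at called loops summed to 1338, 1506, 1588 and 1315 at the members (vehicle 1, vehicle 2, THZ1 1, THZ1 2) and to between 551436 and 762701 over all loops. These sums grow with the number and anchor width of the calls and do not measure depth.

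Calls were joined by single linkage within 20 kb. The step was tested only on simulated loops that lay far apart, which cannot show whether neighbouring loops are wrongly joined. At the members, 5 distinct loops held more than 1 call of a library. Values per library were compared by exact two-sided permutation over 6 splits. Strength was tested with edgeR 4.0.16 (R 4.3.3) by the quasi-likelihood test with the log donut expectation as offset, over 2617 of 2624 loops with identical anchors (7 had an expected value of 0 in some neighborhood) and a Benjamini-Hochberg threshold of 0.05. Simulated counts on the same 2617 loops gave back 77.2% of 2-fold and 38% of 1.5-fold changes. There, 200 loops were changed, up or down, and the rest were not. In the data, 92.8% of the tested loops had a log2 change below 0, so the simulation does not cover a shift shared by most loops. DESeq2 1.42.0, other neighborhoods, scalings, filters, windows, matching distances and leaving out each library were tried. Motifs were searched with Python 3.11.15 in the GRCh37 sequence. The text names all 7 members and, in full, their loops called in all 4 libraries, in both libraries of 1 condition only, or tested. Other loops are given by count, range or as a partner seen in the lists.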

Additional observations from a re-analysis of the deposited data

How the results depend on the processing

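The number of member loops per library kept its direction (log2 ratio -0.36) with no window (-0.36), with 50 kb (-0.33), at a donut FDR of at most 0.01 (-0.43) and without any 1 library (-0.51 to -0.22), but it was -0.66 for 5 kb anchors, -0.06 for 10 kb anchors and reversed to 0.51 for 25 kb anchors. The difference in median size, 3.75 kb, was within the spread between replicates and had no stable sign, at 16.2 kb with no window, -65.0 kb for 10 kb anchors, -231 kb for 25 kb anchors and -2.50 to 10.0 kb without any 1 library. The 7 loops called in both vehicle libraries only became 3 with a matching distance of 50 kb and 8 to 15 without any 1 library, and the 3 called in both THZ1 libraries only became 6 at 10 kb, 1 at 50 kb and 3 to 8 without any 1 library, where fewer libraries have to make or miss the call. The 1 member loop of lower strength became 0 with the bottom-left, horizontal or vertical expectation, with TMM and no expectation, with the offset centred on the median loop, with DESeq2, and without any 1 library (0 to 0). The YAP1 loop's log2 change then ran from -0.70 to -0.07 with adjusted p from 0.0506 to 0.899, against 606 (bottom-left), 47 (horizontal), 72 (vertical), 1 (centred) and 16 (DESeq2) loops lower over all tested, and 226, 0, 0 and 0 without vehicle 1, vehicle 2, THZ1 1 or THZ1 2 (848, 698, 821 and 745 at an unadjusted p under 0.05). Changes of sign came at AMOTL2 (100 kb loop) with the vertical expectation (0.04) and the centred offset (0.14), and at CCN2 with TMM (0.37), the centred offset (0.01) and without THZ1 replicate 2 (0.01, against -0.99 without THZ1 replicate 1). The causes were not tested. With the replicate number as a block, which the labels do not tie to a shared culture or day (correlation of the deviations of same-numbered libraries 0.017 over 2 pairs), 1 member loop stayed lower (adjusted p = 0.0238) and 770 of all loops were lower. A pair of filters on the expected value chosen after seeing the data gave 1 member loop each. The domain count kept its direction (log2 ratio 1.00, 0.68 to 1.49 under all alternatives run), except that counting domains that hold a whole gene gave no ratio, since the vehicle libraries had none. Contacts per loop were few (the lowest over all lists was 9), which limits what a missing call can say.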
